A study of Mus musculus with 16 samples.

Results

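The 10 genes described here are cell cycle brakes and cyclins of mouse embryonic stem cells (ESCs), mostly of the step from G1 to S phase. They are Cdkn1a, Cdkn1b, Lats2, Rbl1, Rbl2, Rb1, Wee1, Ccnd1, Ccnd2 and Ccne1, chosen by symbol as inhibitors of the G1 to S step that ESC microRNAs are known to hold down, the Rb family and G1 cyclins. They are 10 of the 26127 genes listed, and all 10 were among the 12892 genes with enough reads to be tested. Total RNA was sequenced in 16 libraries. Of these, 8 were of wildtype cells (WT), titled CTR (control) for both genes. Another 4 had Dnmt1 deleted (Dnmt1 KO), and 4 had Dicer1 and Dnmt1 both deleted (Dicer/Dnmt1 KO). There was no library with Dicer1 deleted alone among these groups. Dnmt1 copies DNA methylation onto new DNA strands, and Dicer1 cuts the precursors of microRNAs and endogenous small interfering RNAs. Libraries carry a number (1 to 4 in WT, 1 and 2 in each knockout) and a letter (A or B) whose meaning the labels do not give.

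The labels place every library in the E14 background, whereas the methods of the study name a C57BL/6 Dnmt1 loxP/loxP parent. From it a double conditional line and a line with Dicer1 constitutively deleted were made by genome editing of cells grown up as single-cell colonies. Conditional deletion follows induction of Cre. The labels do not say whether Dicer1 was deleted conditionally or constitutively, and give no time after induction for these libraries. ESCs were grown in serum and LIF, with or without feeder cells.

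In most cells, D type cyclins and cyclin E drive cyclin-dependent kinases that phosphorylate the pocket proteins (Rb1, Rbl1, Rbl2) and so release E2F factors, which switch on genes of DNA replication. The inhibitors Cdkn1a and Cdkn1b hold these kinases back. ESCs are known for a short G1 phase, and the abundant miR-290 cluster, with its relative miR-302, is known to repress Cdkn1a, Lats2 and Rbl2 among others. Cells without mature microRNAs are known to gather in G1.

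The mature sequences of this family are shown because their seed, bases 2 to 8 counted from the 5′ end, sets which transcripts they pair with. The seed is in capitals. The sequences and positions are from RefSeq on build GRCm38.p6, where 14 of the 16 microRNAs looked up had an entry. miR-292a-3p and miR-302a-3p are named only. miR-302c-3p, whose RefSeq entry has AGUGCUU as its bases 2 to 8 and so a seed shifted by 1 base, is not shown.
miR-291a-3p: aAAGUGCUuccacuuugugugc
miR-294-3p: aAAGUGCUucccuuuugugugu
miR-295-3p: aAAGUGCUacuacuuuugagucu
miR-302b-3p: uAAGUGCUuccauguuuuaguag
miR-302d-3p: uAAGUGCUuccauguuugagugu
miR-17-5p: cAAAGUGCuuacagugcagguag
miR-93-5p: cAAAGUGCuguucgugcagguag
The first 5 share the seed AAGUGCU. Of these, the members of the miR-290 cluster lie on the plus strand of chromosome 7, miR-291a-3p at chr7:3218968-3218989, miR-294-3p at chr7:3220691-3220712 and miR-295-3p at chr7:3220815-3220837. The relatives miR-302b-3p (chr3:127545275-127545297) and miR-302d-3p (chr3:127545665-127545687) lie on the plus strand of chromosome 3. The seed of miR-17-5p (chr14:115043684-115043706, plus strand) and miR-93-5p (chr5:138165574-138165596, minus strand), AAAGUGC, is the same run of letters shifted by 1 base.

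Matches to the seed of miR-290 and miR-302 (AGCACTT, or GCACTTA) were searched on the transcript strand of the 3′ untranslated region (UTR) of each gene's transcript in GENCODE release M1, on build NCBIM37. The stretches that hold them are shown for each gene of the set with a match, which is in capitals, and Cdkn1a has 2.
Cdkn1a, position 435: cagacctgaatAGCACTTtggaaaaatga
Cdkn1a, position 1107: gtgggtgtcaaAGCACTTagtgggtctga
Lats2, position 1318: tccgtacccaaAGCACTTgctgctgccca
Rbl1, position 22: tgcctgatcaaAGCACTTttggattgttc
Rbl2, position 1384: tttttcaataaAGCACTTataaatta
Ccnd1, position 924: ttccatttcaaAGCACTTttggtcagcta
Ccnd2, position 988: tccattagaaaAGCACTTtgaaaattttg
Positions count from the first base of the 3′ UTR. The Cdkn1a stretches lie at chr17:29236762-29236790 and chr17:29237434-29237462 (plus strand). Those of Lats2 (chr14:58318421-58318449), Rbl1 (chr2:156973203-156973231), Ccnd1 (chr7:152117571-152117599) and Ccnd2 (chr6:127079348-127079376) are on the minus strand, and that of Rbl2 (chr8:93647718-93647743) is on the plus strand. The Rbl2 stretch is shorter because the annotated transcript ends there.

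Of the 9 genes with an annotated 3′ UTR, 6 thus held a match, while Cdkn1b, Rb1 and Ccne1 held none in this window. Wee1 has no 3′ UTR in this annotation and was not searched. Among all 12305 tested genes with a 3′ UTR, 20% held a match, and among the 8643 whose 3′ UTR was as long as those of the set (531 to 4556 bases) 23.2% did. Since several of the genes were chosen as known targets, this share is a description. The match of the miR-17 and miR-93 seed (GCACTTT) overlaps the miR-290 match at position 435 in Cdkn1a and in Rbl1, Ccnd1 and Ccnd2, so that both families share these letters. Lats2, Rbl2 and Rb1 hold GCACTTT at other positions. GCACTTT occurred in 14.2% of the 12305 genes.

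The 10 genes lie on 6 chromosomes of NCBIM37. Cdkn1a is at chr17:29227924-29237667, Cdkn1b at chr6:134870419-134875531, Lats2 at chr14:58260914-58377225, Rb1 at chr14:73583480-73725629 and Rbl1 at chr2:156971629-157030270. Rbl2 is at chr8:93593956-93647743, Wee1 at chr7:117265864-117285626, Ccnd1 at chr7:152115836-152125774, Ccnd2 at chr6:127075797-127101066 and Ccne1 at chr7:38883003-38892553. All are protein coding.

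Levels are given as log2 RPM, the log2 of reads scaled to 1 M mapped reads of the library, as deposited. The libraries held 31.46 to 52.54 M reads, and the lowest count of any of the 10 genes in any library was 125 reads (Ccnd2 in WT 4B). Dnmt1 was at 5.55 to 7.66 log2 RPM in WT, with WT 4A (5.69) and WT 4B (5.55) far below the other 6 (7.40 to 7.66), at 4.17 to 4.63 in Dnmt1 KO and at 4.49 to 4.64 in Dicer/Dnmt1 KO. Dicer1 was at 3.68 to 4.06 in Dicer/Dnmt1 KO, whereas Dnmt1 KO libraries had 5.28 to 5.68 and WT libraries 4.56 to 5.68, of which WT 4A and 4B were again lowest. Each gene was thus lowest in the libraries labelled as its knockout, with RNA left in them. For Dnmt1, WT 4A and WT 4B lay between these and the rest of WT. The 10 ESC markers summed to 1791 to 3457 RPM. Y-linked transcripts summed to 0.235 to 1.37 RPM in WT, 19.2 to 22 in Dnmt1 KO and 14.4 to 19.2 in Dicer/Dnmt1 KO, and Usp9y had no read in any WT library. WT and knockout libraries therefore differ in more than the labelled deletions, and in each comparison with WT below the deletion and the origin of the cells cannot be told apart.

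**Figure D1:**
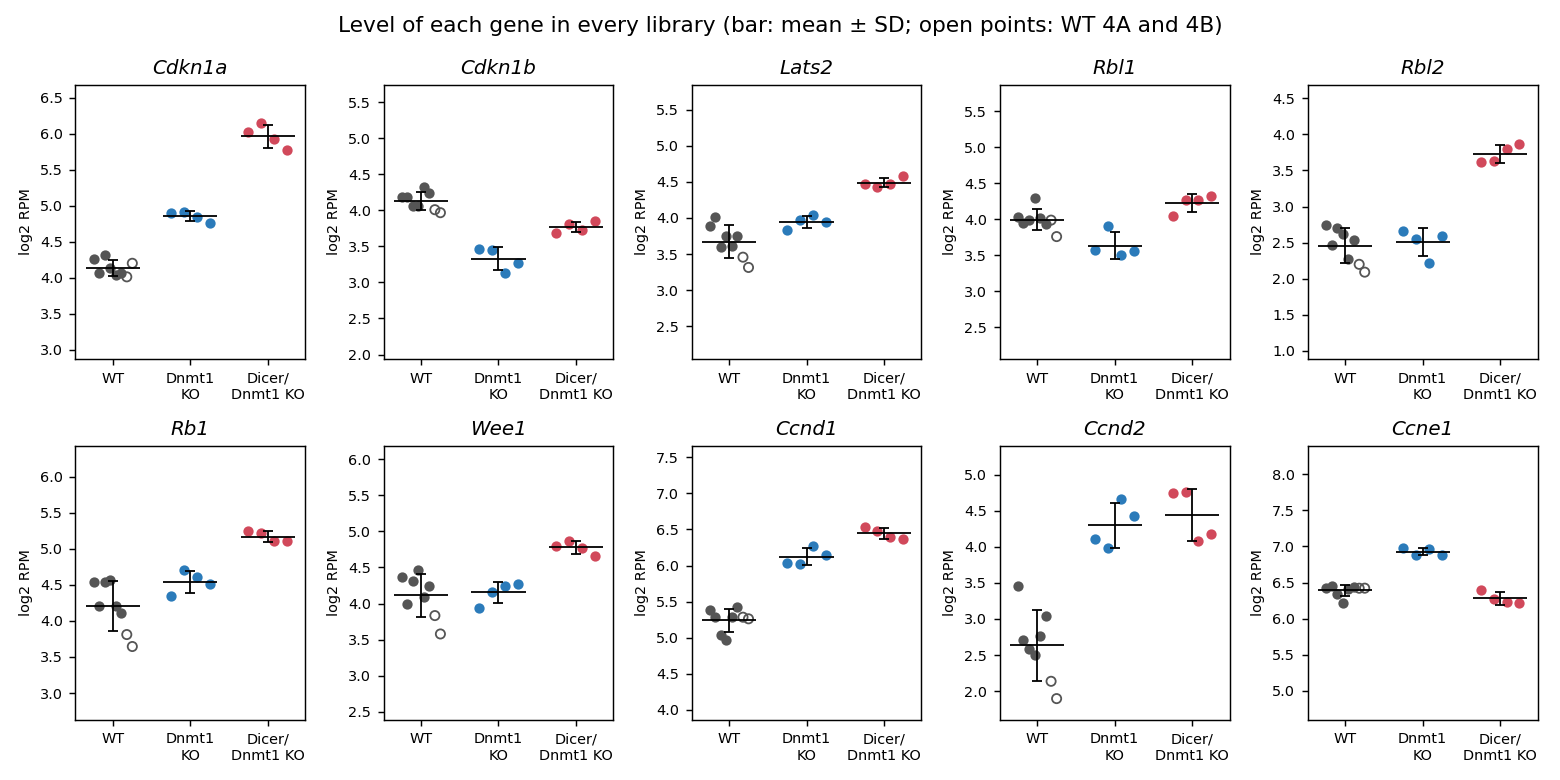
Level (log2 RPM, vertical axis, the same span of log2 units in each panel) of each of the 10 genes in the libraries of WT (8), Dnmt1 KO (4) and Dicer/Dnmt1 KO (4). Points are libraries, open points are WT 4A and WT 4B, and bars give the mean ± SD; Cdkn1a and Rbl2 stand highest in the Dicer/Dnmt1 KO, Cdkn1b is lowest and Ccne1 highest in the Dnmt1 KO.

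The comparison of Dicer/Dnmt1 KO with Dnmt1 KO sets cells that lack both genes beside cells that lack Dnmt1. Lines with Dicer1 edited came from single-cell colonies, and the labels give no time after induction. The loss of Dicer1, the clone and the time thus cannot be told apart here either. Between the knockouts 8 of the 10 genes rose, 1 fell (Ccne1) and 1 did not pass the test (Ccnd2). The largest rises were those of Rbl2 (2.34-fold) and Cdkn1a (2.15-fold), both brakes. For comparison, 36.3% of all tested genes passed in this comparison, 16.9% as higher and 19.4% as lower. The median log2 fold change of the 10 genes was 0.57, beside -0.01 over all tested genes.

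Libraries A and B of a number are on average more alike than other pairs (correlation of 0.67 within a number, estimated over all tested genes). The p-values over single libraries may thus be too small. WT 1A and 1B were an exception, with an SD of 0.36 for their difference, beside 0.33 for WT 2A and 3B. With A and B averaged, which leaves 2 values for each knockout, 4 of the 10 genes passed (Cdkn1a, Rbl1, Rbl2 and Ccne1), against 9.5% of all tested genes. Nothing in the labels says that libraries came from separate cultures, so p-values measure only the spread between these libraries.

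**Figure D2:**
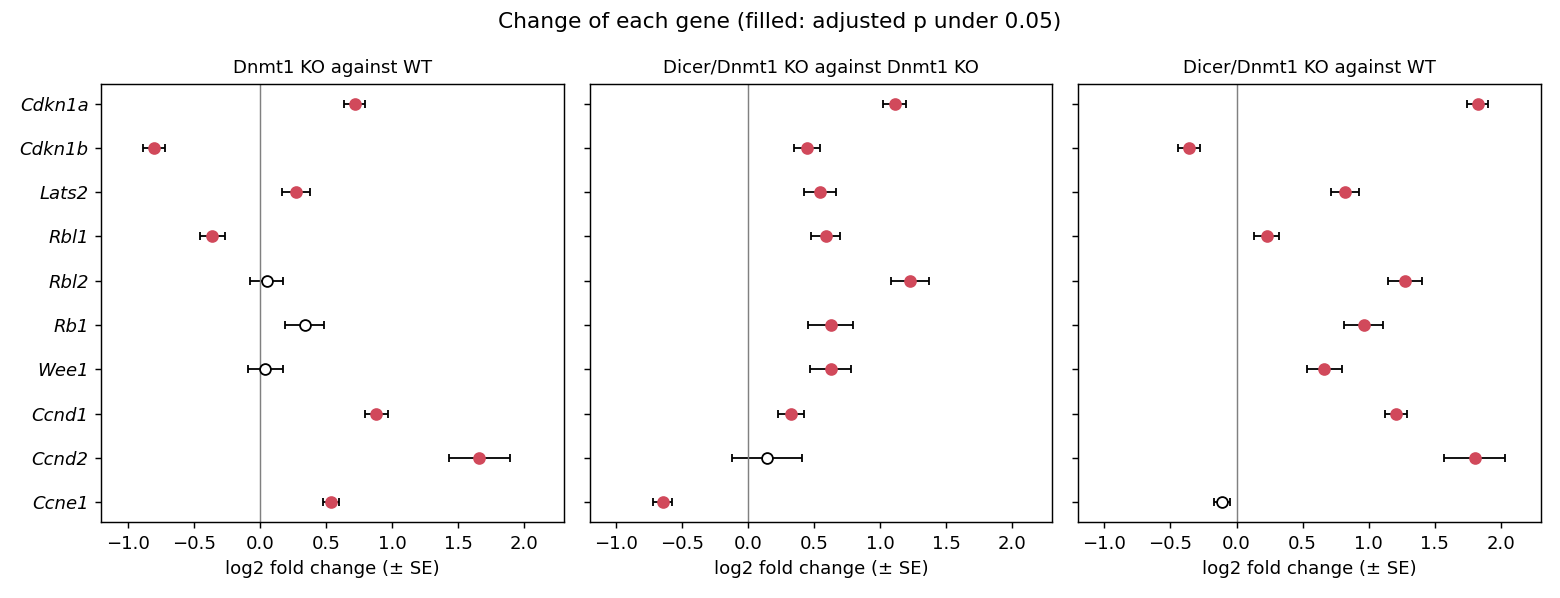
Log2 fold change (horizontal axis, ± SE from limma) of each gene in the 3 comparisons, with filled points for an adjusted p under 0.05. Between Dicer/Dnmt1 KO and Dnmt1 KO 8 filled points lie above 0 and Ccne1 lies below it.

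Cdkn1a encodes p21, an inhibitor of cyclin-dependent kinases and a target of p53. Its level was 4.01 to 4.31 log2 RPM in WT (median 4.11). In Dnmt1 KO it was 4.90, 4.92, 4.85 and 4.76 in libraries 1A, 1B, 2A and 2B, and in Dicer/Dnmt1 KO it was 6.02, 6.14, 5.92 and 5.77. The 3 groups did not overlap, and each step was upward. The log2 fold change was 1.11 ± 0.09 (SE) between the knockouts (limma adjusted p = 1.55e-07) and 0.72 ± 0.08 between Dnmt1 KO and WT (limma adjusted p = 1.57e-06). Against WT the Dicer/Dnmt1 KO level was 3.54-fold higher. Both calls held with A and B averaged (adjusted p = 0.00412 and 0.00366).

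Cdkn1b encodes p27, the other inhibitor of this family in the set. Its level was 3.97 to 4.33 log2 RPM in WT (median 4.12). The Dnmt1 KO libraries had 3.46, 3.45, 3.13 and 3.27, below every WT library. The Dicer/Dnmt1 KO libraries had 3.69, 3.81, 3.73 and 3.84, between the other groups without overlap. Cdkn1b therefore moved in the opposite direction to Cdkn1a when Dnmt1 KO was set against WT, with a log2 fold change of -0.80 ± 0.08 (limma adjusted p = 1.03e-06). Between the knockouts it rose by 0.44 ± 0.10 (limma adjusted p = 0.00206), a call that ended with A and B averaged (adjusted p = 0.097). Against WT the Dicer/Dnmt1 KO level was lower by a log2 fold change of -0.36 ± 0.08 (limma adjusted p = 0.00141; 0.0546 with A and B averaged).

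Lats2, a kinase of the Hippo pathway that also restrains the G1 to S step, was at 3.31 to 4.01 log2 RPM in WT (median 3.68). It was at 3.83, 3.97, 4.04 and 3.94 in Dnmt1 KO and at 4.48, 4.43, 4.47 and 4.58 in Dicer/Dnmt1 KO. The double knockout libraries lay above all the others, while Dnmt1 KO and WT overlapped. Lats2 rose between the knockouts by a log2 fold change of 0.55 ± 0.12 (limma adjusted p = 0.00216; 0.0806 with A and B averaged). Against WT it was 0.82 ± 0.11 in Dicer/Dnmt1 KO (limma adjusted p = 4.15e-06). The change of 0.27 ± 0.11 in Dnmt1 KO (limma adjusted p = 0.046) did not hold without WT number 4 (0.18, adjusted p = 0.0978) or with A and B averaged (0.251).

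Wee1 encodes the kinase that holds Cdk1 inactive before mitosis. It was at 3.58 to 4.47 log2 RPM in WT (median 4.17), at 3.94, 4.16, 4.24 and 4.27 in Dnmt1 KO and at 4.80, 4.87, 4.78 and 4.67 in Dicer/Dnmt1 KO. Only the double knockout stood apart from the other groups. Between the knockouts its log2 fold change was 0.62 ± 0.15 (limma adjusted p = 0.00456; 0.0839 with A and B averaged). For Dnmt1 KO against WT it was 0.04, with a 95% interval of -0.24 to 0.32.

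Of the pocket proteins, Rbl2 (p130) changed most. It was at 2.09 to 2.74 log2 RPM in WT (median 2.50), at 2.66, 2.55, 2.22 and 2.59 in Dnmt1 KO and at 3.61, 3.63, 3.80 and 3.87 in Dicer/Dnmt1 KO. The Dnmt1 KO values fell inside the WT range, and the lowest double knockout library lay 0.87 log2 units above the highest WT library. The log2 fold change was 1.22 ± 0.15 between the knockouts (limma adjusted p = 8.71e-06; 0.00895 with A and B averaged) and 1.27 ± 0.13 against WT (limma adjusted p = 2.01e-07). Between Dnmt1 KO and WT it was 0.05 (95% interval -0.21 to 0.32).

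Rb1, the retinoblastoma protein gene, was at 3.64 to 4.57 log2 RPM in WT (median 4.21), at 4.35, 4.71, 4.6 and 4.51 in Dnmt1 KO and at 5.25, 5.21, 5.10 and 5.10 in Dicer/Dnmt1 KO. Its 3′ UTR held no miR-290 match in the window searched, but 1 match to the miR-17 and miR-93 seed. The double knockout libraries lay above all the others. Rb1 had a log2 fold change of 0.62 ± 0.17 between the knockouts (limma adjusted p = 0.00856), which did not pass with A and B averaged (0.113), and 0.96 ± 0.15 against WT (limma adjusted p = 2.67e-05; 0.00508 averaged). In Dnmt1 KO against WT Rb1 was 0.34 ± 0.15 higher on the log2 scale and did not pass (limma adjusted p = 0.0744). It passed without WT 1A, 2A or 2B (limma adjusted p = 0.0367, 0.0438 and 0.0389), with the length trend removed (0.0314), and with WT numbers 3 and 4 only, where the difference was 0.60 (6.98e-04).

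Rbl1 encodes p107, the pocket protein that peaks in cycling cells. It was at 3.76 to 4.29 log2 RPM in WT (median 3.99), at 3.57, 3.91, 3.50 and 3.57 in Dnmt1 KO and at 4.05, 4.26, 4.27 and 4.32 in Dicer/Dnmt1 KO. Dnmt1 KO lay lowest, although its library 1B reached into the WT range. The log2 fold change was -0.36 ± 0.10 between Dnmt1 KO and WT (limma adjusted p = 0.00585; 0.0792 with A and B averaged) and 0.59 ± 0.11 between the knockouts (limma adjusted p = 5.43e-04; 0.038 averaged). Against WT the rise of 0.23 ± 0.10 (limma adjusted p = 0.0452) ended with A and B averaged (0.172), and with any of several single libraries left out, such as WT 1B (adjusted p = 0.0641). With the length trend removed the change was 0.08 (limma adjusted p = 0.478).

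Ccne1 encodes cyclin E1, the partner of Cdk2 at the entry into S phase, and had the highest level of the set per transcript length in each group. It was at 6.22 to 6.45 log2 RPM in WT (median 6.42). In Dnmt1 KO it was 6.98, 6.89, 6.97 and 6.88, above every other library. In Dicer/Dnmt1 KO it was 6.40, 6.28, 6.22 and 6.22, inside or just below the WT range. It rose by a log2 fold change of 0.54 ± 0.06 in Dnmt1 KO (limma adjusted p = 2.33e-06; 0.00958 with A and B averaged) and was lower by -0.65 ± 0.07 in Dicer/Dnmt1 KO against Dnmt1 KO (limma adjusted p = 3.44e-06; 0.016 averaged). The difference of Dicer/Dnmt1 KO from WT was -0.11, with a 95% interval of -0.24 to 0.02 (limma adjusted p = 0.121), and it passed without WT 2B (adjusted p = 0.0484) and with the libraries centred on their medians (adjusted p = 0.0204).

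Ccnd1, cyclin D1, was at 4.97 to 5.42 log2 RPM in WT (median 5.28). It was at 6.04, 6.02, 6.28 and 6.15 in Dnmt1 KO and at 6.54, 6.48, 6.40 and 6.36 in Dicer/Dnmt1 KO. The 3 groups did not overlap, and the gap between the knockouts was 0.09 log2 units. The log2 fold change was 0.88 ± 0.09 between Dnmt1 KO and WT (limma adjusted p = 3.40e-07; 0.00233 with A and B averaged), beside 1.20 ± 0.09 between Dicer/Dnmt1 KO and WT. Between the knockouts it was 0.32 ± 0.10 (limma adjusted p = 0.0159), a call lost with A and B averaged (0.201) and without Dicer/Dnmt1 KO 1A (0.0517).

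Ccnd2, cyclin D2, varied most among libraries of a group. It was at 1.9 to 3.46 log2 RPM in WT (median 2.64), at 4.11, 3.99, 4.67 and 4.42 in Dnmt1 KO and at 4.74, 4.76, 4.08 and 4.17 in Dicer/Dnmt1 KO. Both knockouts lay above WT and overlapped each other. Ccnd2 had a log2 fold change of 1.66 ± 0.23 in Dnmt1 KO against WT (3.16-fold, limma adjusted p = 2.05e-05; 0.00536 with A and B averaged) and 1.80 ± 0.23 in Dicer/Dnmt1 KO against WT (3.49-fold, limma adjusted p = 3.67e-06; 0.0016 averaged). Between the knockouts it was 0.14, with a 95% interval of -0.42 to 0.70.

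Among the 12892 tested genes, those whose pattern over the 16 libraries was most like that of Ccnd2 were Col1a1, Aebp1 and Cobll1. The root mean square difference of their centred log2 RPM from that of Ccnd2 was 0.22, 0.22 and 0.24, beside a median of 0.97 over all genes. Col1a1, a collagen gene, is also 1 of the 12 markers of feeder fibroblasts. It was at 16.3, 13.4, 23.5 and 23.7 RPM in Dnmt1 KO and at 30.3, 33.3, 18.3 and 15.9 RPM in Dicer/Dnmt1 KO, beside 3.13 to 14.9 RPM in WT.

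The 12 feeder markers summed to 72.4 to 116 RPM in WT, 150 to 166.2 in Dnmt1 KO and 134 to 221 in Dicer/Dnmt1 KO. Of the 10 tested, 8 were higher and 1 (Mmp2) lower in Dicer/Dnmt1 KO against WT, beside 31.9% and 30.1% of all tested genes. Dnmt1 KO against WT had 6 higher and 1 lower, beside 23.5% and 17.5% of all tested genes. Averaging A and B left 6 and 4 higher, and 1 lower in each, beside 39.8% and 17.7% of all tested genes called either way. S100a4 and Pdgfrb, higher in Dicer/Dnmt1 KO than in WT, had an adjusted p = 0.0523 and adjusted p = 0.148 with an estimated correlation. Dcn and Lum, also among the 12, were at 0.0705 to 0.513 and 0 to 0.168 RPM over the libraries. Feeder cells in the cultures and collagen expression by the ESCs cannot be told apart in bulk RNA, where a change in the share of a cell type and a change in RNA per cell look alike. The part of either in the Ccnd2 and Ccnd1 values was not tested.

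For Cdkn1a the nearest genes by the same measure were Galnt7 (0.11), Hipk3 (0.16) and Lama3 (0.17), for Rbl2 they were Polq (0.13), March8 (0.14) and Cnot6 (0.16), and for Ccnd1 they were Rasip1 (0.11), Nr3c1 (0.12) and Tmtc3 (0.16). The medians over all genes were 0.79, 0.64 and 0.60. The remaining 6 genes had group means that spanned less than 1 log2 unit and were not matched.

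Per length the order of levels could be compared between genes. Ccne1 was highest in each group, at 42.0 ± 2.1 RPM per kb of its longest transcript in WT (SD, n = 8), 60.9 ± 2.2 in Dnmt1 KO (SD, n = 4) and 38.9 ± 2.4 in Dicer/Dnmt1 KO (SD, n = 4). Ccnd1 (10.2 ± 1.1), Cdkn1a (9.25 ± 0.72) and Wee1 (9.07 ± 1.79) followed in WT and did not differ beyond their SDs. In Dicer/Dnmt1 KO Cdkn1a was second at 32.8 ± 3.6 RPM per kb, above Ccnd1 at 23.3 ± 1.3.

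Rb1 (4.05 ± 0.92), Cdkn1b (3.86 ± 0.34) and Rbl1 (3.30 ± 0.35) were next in WT, with ranges of mean ± SD that overlapped between neighbours. Ccnd2 (1.15 ± 0.40) and Rbl2 (1.13 ± 0.18) were lowest and alike. Rbl2 stayed lowest in the double knockout (2.70 ± 0.24), where its range of mean ± SD overlapped that of Cdkn1b (3.00 ± 0.15). The Wee1 transcript in the annotation lacks a 3′ UTR, so the length used for it is too short.

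**Figure D3:**
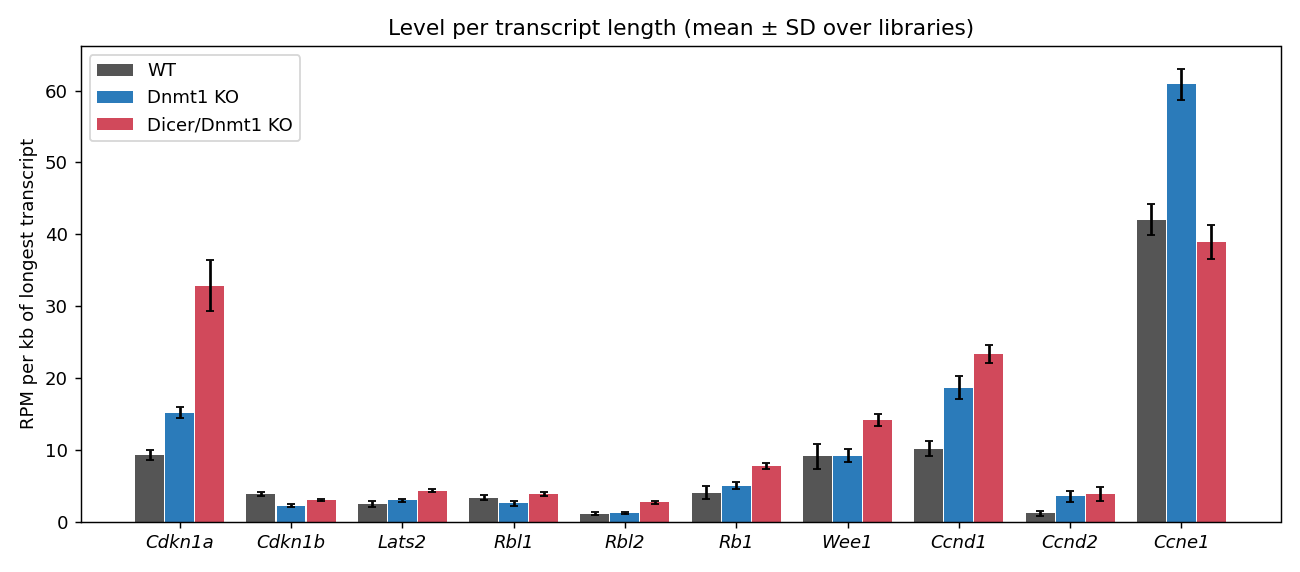
Level of each gene in RPM per kb of its longest annotated transcript (vertical axis, from 0), with bars for the mean over the libraries of WT (8), Dnmt1 KO (4) and Dicer/Dnmt1 KO (4) and error bars for the SD. Ccne1 is the highest bar in each group, and Cdkn1a rises from 9.25 in WT to 32.8 in Dicer/Dnmt1 KO.

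The comparison of Dnmt1 KO with WT asks what the loss of Dnmt1 does while Dicer1 is present. Of the 10 genes 5 rose (Cdkn1a, Lats2, Ccnd1, Ccnd2 and Ccne1), 2 fell (Cdkn1b and Rbl1) and 3 did not pass. All 3 cyclins were among the 5, and the median log2 fold change of the set was 0.31, beside 0.04 over all tested genes. Of all tested genes 41% passed, 23.5% as higher and 17.5% as lower. With A and B averaged 5 of the 10 passed (17.7% of all tested genes). Without WT number 4 the Lats2 call was lost (limma adjusted p = 0.0978).

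Primitive endoderm markers moved with this comparison. Of all tested genes 23.5% were called higher and 17.5% lower in it. These shares were 16.9% and 19.4% between the knockouts, and 31.9% and 30.1% in Dicer/Dnmt1 KO against WT. With A and B averaged, the shares called either way were 17.7%, 9.5% and 39.8% in the same order of comparisons. All 8 endoderm markers, among them Gata4, Gata6 and Sox17, passed as higher in Dnmt1 KO against WT. With A and B averaged 7 did, Sox17 being lost (limma adjusted p = 0.0528, or 0.0505 with an estimated correlation). Their summed level was 51.8 to 109 RPM in WT, 128 to 218 in Dnmt1 KO and 106 to 124 in Dicer/Dnmt1 KO. Foxa2, Sox7 and Sox17 had WT means under 1 RPM (-2.61, -0.28 and -0.64 log2 RPM). The filter may have kept them through the knockout libraries only, which favours rises against WT. Between the knockouts 4 of the 8 were lower, with a median log2 fold change of -0.84, and Sox7 (-1.88 ± 0.33) and Dab2 (-1.27 ± 0.20) were still lower with A and B averaged. Dicer/Dnmt1 KO had 5 higher than WT, of which 2 were left with A and B averaged. Of 10 ESC markers, 4 were lower in Dnmt1 KO than in WT: Sox2 (-0.67 ± 0.11), Nanog (-0.64 ± 0.11), Fgf4 (-0.64 ± 0.09) and Klf4 (-0.55 ± 0.16), which was lost with A and B averaged (limma adjusted p = 0.12). Between the knockouts 4 ESC markers were higher and 2 lower, and the rise of Nanog (0.73 ± 0.13) was the call left with A and B averaged. Tdgf1 and Utf1 were lower in Dicer/Dnmt1 KO than in WT, also with A and B averaged. The 10 ESC markers summed to 1997 to 3457 RPM in WT, 1791 to 2474 in Dnmt1 KO and 2029 to 2377 in Dicer/Dnmt1 KO. Of 6 trophoblast markers tested, Cdx2, Ascl2 and Hand1 rose in Dnmt1 KO against WT, also with A and B averaged, although Cdx2 had an adjusted p = 0.0739 with an estimated correlation. Their means were -1, -0.94 and -2.23 log2 RPM in WT and 0.23, 0.51 and 0.96 in Dnmt1 KO. They lay near the filter of 1 RPM and may have passed it through knockout libraries only, which favours rises. The summed level of the 7 trophoblast markers was 180 to 281 RPM in WT, 199 to 218 in Dnmt1 KO and 217 to 253 in Dicer/Dnmt1 KO. The part of these markers in the levels of the 10 genes was not tested.

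Against WT, Dicer/Dnmt1 KO had 8 of the 10 genes higher, Cdkn1b lower and Ccne1 not past the threshold, with a median log2 fold change of 0.89 beside 0.02 over all tested genes. In this comparison 61.9% of all tested genes passed, 31.9% as higher and 30.1% as lower, so that a call by itself says little here. With A and B averaged 7 of the 10 passed (39.8% of all tested genes). The comparisons share libraries, and their values stand side by side for that reason.

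Within WT, libraries 4A and 4B were the lowest pair for 6 of the 10 genes, as they were for 28.8% of all tested genes. The genes were Cdkn1b, Lats2, Rbl2, Rb1, Wee1 and Ccnd2. Ccnd2, for example, averaged 2.02 log2 RPM in WT number 4, 2.9 in number 3 and 2.81 in numbers 1 and 2. Ribosomal protein genes took 10.6% and 11.2% of gene reads in WT 4A and 4B, against 5.45% to 8.80% in each of the others. The part of this in the levels of the 10 genes was not tested.

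Other genes of the G1 to S machinery were read from a list of 44, none of them in the set, of which 42 were tested. Between the knockouts 6 rose and 13 fell, beside 16.9% of all tested genes called higher and 19.4% lower. The median log2 fold change of the 42 was -0.07. The largest rises were those of Lats1, the other Hippo kinase of this family (1.06 ± 0.14, limma adjusted p = 2.40e-05), Ccne2, the second cyclin E gene (0.77 ± 0.13, adjusted p = 2.55e-04), and Cdc25b, a phosphatase that activates Cdk1 (0.64 ± 0.12, adjusted p = 4.15e-04). The largest falls were those of Myc (-1.71 ± 0.23, adjusted p = 3.27e-05), Cks1b, a cofactor in the destruction of p27 (-0.83 ± 0.13, adjusted p = 1.02e-04), and Tfdp1, the partner of E2F factors (-0.71 ± 0.07, adjusted p = 9.77e-07). With A and B averaged 3 rose and 3 fell, beside 9.5% of all tested genes called either way. The 2 cyclin E genes thus differed in sign between the knockouts.

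In Dnmt1 KO against WT 11 of the 42 rose and 11 fell, beside 23.5% and 17.5% of all tested genes. Myc rose most (1.91 ± 0.20, limma adjusted p = 1.10e-06), followed by the kinase inhibitor genes Cdkn1c (1.49 ± 0.15), which is imprinted, and Cdkn2a (1.41 ± 0.20). The largest falls were those of Mycn (-0.62 ± 0.08), Mybl2 (-0.59 ± 0.13) and Cdc25c (-0.55 ± 0.15). Averaging A and B left 6 rises and 2 falls, beside 17.7% of all tested genes called either way. Cdkn2c, among the rises, had a WT mean under 1 RPM (-0.81 log2 RPM), so the filter may have kept it through knockout libraries only.

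In Dicer/Dnmt1 KO against WT 14 rose and 16 fell, beside 31.9% and 30.1% of all tested genes. The rises were led by Cdkn1c (1.45 ± 0.15), Cdkn2a (1.31 ± 0.20) and Ccne2 (0.98 ± 0.11). The falls were led by the mitotic genes Ccnb1 (-0.92 ± 0.13) and Cdk1 (-0.88 ± 0.14), and Cks1b (-0.89 ± 0.11). Averaging A and B left 8 rises and 13 falls, beside 39.8% of all tested genes called either way.

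Genes of DNA replication that E2F factors switch on were followed as the output of this step. Between the knockouts 13 of 24 fell and the other 11 did not pass, with a median log2 fold change of -0.34, beside 19.4% of all tested genes called lower. Gins2, a subunit of the replicative helicase, fell most (-0.74 ± 0.12, limma adjusted p = 1.21e-04), followed by the histone mRNA binding protein gene Slbp (-0.58 ± 0.14, adjusted p = 0.00344) and Mcm5, another helicase subunit (-0.54 ± 0.10, adjusted p = 3.94e-04). With A and B averaged 2 of the 13 calls were left, beside 9.5% of all tested genes called either way. In Dnmt1 KO against WT 8 of the 24 rose, beside 23.5% of all tested genes called higher. They were led by Lig1 (0.42 ± 0.13), Uhrf1 (0.41 ± 0.09) and Mcm4 (0.35 ± 0.08). None of the 8 passed with A and B averaged (Uhrf1, the lowest, had an adjusted p of 0.0574), beside 17.7% of all tested genes. In Dicer/Dnmt1 KO against WT 8 of the 24 fell, a share near the 30.1% of all tested genes called lower. The falls were led by Gins2 (-0.71 ± 0.10), Slbp (-0.55 ± 0.12) and Mcm5 (-0.48 ± 0.08), and 1 gene was higher (Lig1, 0.33 ± 0.13). Of the 8 lower calls 5 were left with A and B averaged, beside 39.8% of all tested genes called either way. Averaging also lost Lig1 (limma adjusted p = 0.167, or 0.103 with an estimated correlation).

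Since Cdkn1a is a target of p53, 15 other p53 targets were read beside it. Between the knockouts, where Cdkn1a rose by 1.11, 2 of the 15 were higher and 6 lower, beside 16.9% and 19.4% of all tested genes. With A and B averaged 1 higher and 3 lower were left, beside 9.5% of all tested genes called either way. The higher genes were Ei24 (0.89 ± 0.08), also on the list of miR-290 family targets, and Ccng1 (0.34 ± 0.12), which was lost with A and B averaged (limma adjusted p = 0.248; adjusted p = 0.128 with an estimated correlation). The largest falls were those of Pmaip1 (-0.74 ± 0.10), Phlda3 (-0.53 ± 0.09) and Aen (-0.48 ± 0.08), which act in apoptosis. Trp53inp1 and Perp, also lower, had an adjusted p = 0.0883 and adjusted p = 0.0562 with an estimated correlation. In Dnmt1 KO against WT 23.5% of all tested genes were called higher and 17.5% lower. Of the 15, 7 were higher, led by Perp (0.75 ± 0.10), Mdm2 (0.56 ± 0.06) and Sesn2 (0.55 ± 0.14), and 1 was lower (Bbc3, -0.57 ± 0.14). Averaging A and B left 2 of these, Perp and Mdm2, beside 17.7% of all tested genes called either way. Sesn2 (limma adjusted p = 0.0586) and Bbc3 (0.0711) were lost. Bax, Zmat3 and Gtse1 were lost also with an estimated correlation (adjusted p = 0.196, 0.152 and 0.158). In Dicer/Dnmt1 KO against WT 6 were higher and 5 lower, beside 31.9% and 30.1% of all tested genes. With A and B averaged these counts were 4 and 4, beside 39.8% of all tested genes called either way. The part of p53 in the Cdkn1a values was not tested.

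Lats2 was read beside 17 genes of the Hippo pathway and targets of its effector Yap1. Between the knockouts 2 of the 17 were higher, beside 16.9% of all tested genes, and the other 15 did not pass. The 2 were the upstream kinase gene Stk3 (0.45 ± 0.12) and Nf2 (0.56 ± 0.10). Nf2 passed with A and B averaged (limma adjusted p = 0.0481) and Stk3 did not (limma adjusted p = 0.0835; adjusted p = 0.126 with an estimated correlation). Against WT, Dicer/Dnmt1 KO had 5 higher and 2 lower, beside 31.9% and 30.1% of all tested genes. The rises were led by Mob1b (0.99 ± 0.12), a coactivator of the Lats kinases, Axl (0.87 ± 0.15) and Nf2 (0.65 ± 0.08). The 2 lower genes were Amotl2 (-0.84 ± 0.15) and Tead2 (-0.57 ± 0.12). Averaging A and B left 3 higher and 2 lower, beside 39.8% of all tested genes called either way. Mob1a (0.26 ± 0.10) and Yap1 (0.32 ± 0.14) were lost (adjusted p = 0.0728 and 0.126 with an estimated correlation). Dnmt1 KO against WT had 3 higher and 2 lower, beside 23.5% and 17.5% of all tested genes. With A and B averaged these counts were 2 and 1, beside 17.7% of all tested genes called either way.

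Of 9 further genes known as targets of the miR-290 family, 7 rose between the knockouts and 2 did not pass. The median log2 fold change of the 9 was 0.53, while 16.9% of all tested genes were called higher. Lefty1, a Nodal antagonist, rose most (1.43 ± 0.12, limma adjusted p = 2.51e-07), followed by Ei24 (0.89 ± 0.08) and Lefty2 (0.71 ± 0.11). The 2 that did not pass were Rela (0.34 ± 0.18) and the Wnt antagonist gene Dkk1 (-1.25 ± 0.55, limma adjusted p = 0.0812). With A and B averaged 5 of the 7 passed, beside 9.5% of all tested genes called either way. Against WT, all 9 were higher in Dicer/Dnmt1 KO, beside 31.9% of all tested genes. With A and B averaged 7 were, beside 39.8% of all tested genes called either way. Rela and Dkk1 were lost (limma adjusted p = 0.1 and 0.0794, or 0.113 and 0.0506 with an estimated correlation). Dkk1 had a WT mean under 1 RPM (-0.66 log2 RPM), so the filter may have kept it through knockout libraries only. Dnmt1 KO against WT had 3 higher and 1 (Casp2) lower, beside 23.5% and 17.5% of all tested genes. Averaging A and B left 2 higher, beside 17.7% of all tested genes called either way. Casp2 then had a limma adjusted p = 0.23 (adjusted p = 0.14 with an estimated correlation).

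Seed matches were then set beside the change of all tested genes. Between the knockouts the median log2 fold change was -0.05 over the 9838 genes with no miR-290 match, 0.13 over the 1962 with 1 match and 0.30 over the 505 with 2 or more, and 13.6%, 28.9% and 42.4% of these genes were called higher. The 5 genes of the set with 1 match had log2 fold changes from 0.14 (Ccnd2) to 1.22 (Rbl2), and Cdkn1a, with 2, had 1.11. Of the genes of the set with no match in the window, Rb1 had 0.62, Cdkn1b 0.44 and Ccne1 -0.65, so that Rb1 and Cdkn1b lay above Ccnd2 and Ccnd1 (0.32), which have a match. In Dnmt1 KO against WT, where Dicer1 is present, the medians were 0.03, 0.05 and 0.08. Matches to the miR-17 and miR-93 seed, which overlap these, went with medians of 0.18 (1 match) and 0.38 (2 or more) between the knockouts. Rb1 holds 1 match to that seed, and Cdkn1b and Ccne1 hold none.

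Longer transcripts also had higher values between the knockouts, from a median log2 fold change of -0.29 in genes up to 1000 bases to 0.25 in genes over 6000 bases, and longer 3′ UTRs can hold more matches. With the trend on transcript length removed, the medians for no match, 1 match and 2 or more were -0.04, 0.05 and 0.13. The 9 calls among the 10 genes between the knockouts were as many with that trend removed. Genes with matches share length and base composition, so these medians are a description.

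**Figure D4:**
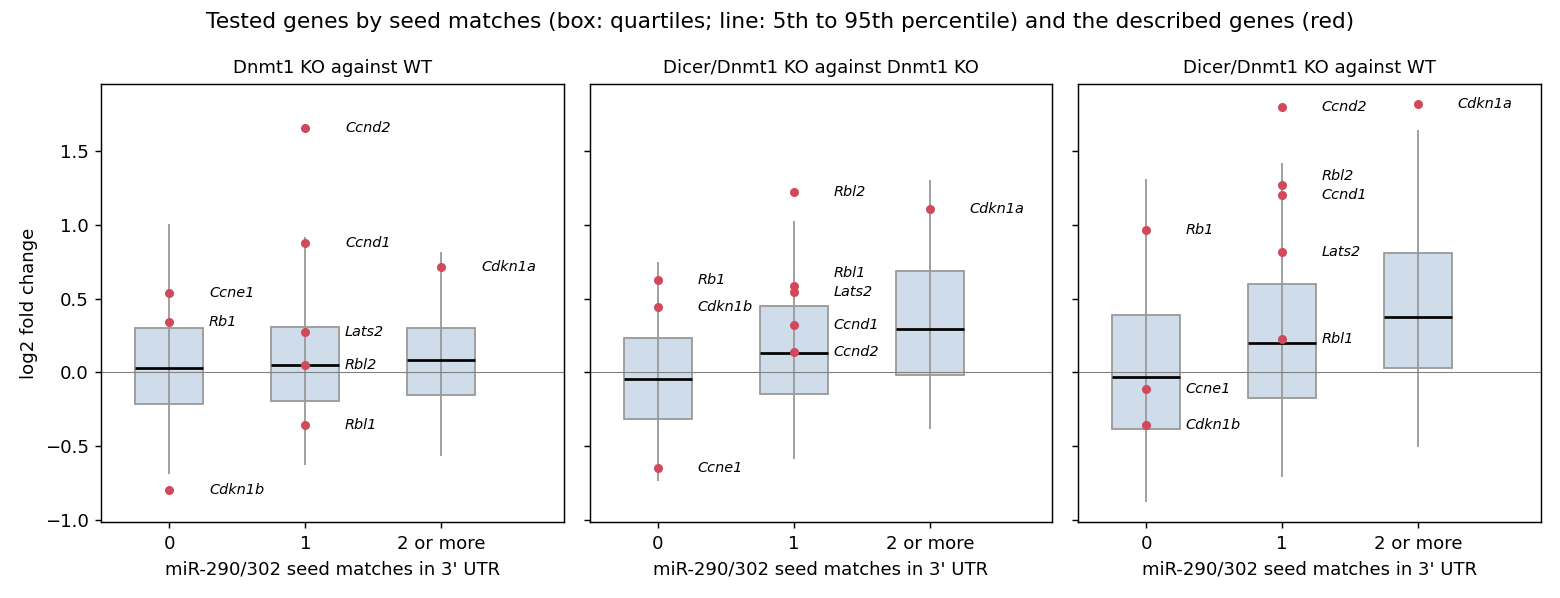
Log2 fold change (vertical axis) of the 12305 tested genes with an annotated 3′ UTR by their number of miR-290 seed matches (horizontal axis), in 3 comparisons. Boxes give quartiles and medians, lines the 5th to 95th percentile, and red points the 9 described genes with a 3′ UTR; between the knockouts the medians rise from -0.05 to 0.30, and in Dnmt1 KO against WT they lie between 0.03 and 0.08.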

How the data were processed

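RNA without ribosomal RNA was made into stranded libraries and sequenced as read pairs. For each library the authors trimmed reads (Trim Galore 0.3.5, per the submitters' processing notes), aligned them (TopHat2 2.0.11), discarded mapping qualities under 20 and quantified genes in SeqMonk. The deposited values are log2 RPM on NCBIM37, and whether counting used strand is not given in the sources used here. All values above 0 reads came out as whole reads on the linear scale (100%), and 0 reads are written as 0.9 read. A further 35 value columns of other samples were not used.

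Genes above 1 RPM in at least 4 libraries were tested. limma 3.58.1 (R 4.3.3) fitted 3 group means to the 16 libraries, with an intensity trend, and a gene was called where its p-value, adjusted by Benjamini-Hochberg over all 12892 genes, was under 0.05. Each library entered as 1 replicate. Reads of A and B of a number differed by more than counting noise (chi-square of 2.61 to 17.7 per gene). Gene models are GENCODE M1, and transcript length is that of the longest transcript. On simulated data the fit recovered 81% of 100 genes changed by 1 log2 unit and 99% of 100 changed by 2, with 12 false calls. Noise was drawn independently for each simulated library, so this does not cover the likeness of A and B. The genes, lists and comparisons were chosen with earlier results of these data known. All 10 genes are named, with up to 3 rises and 3 falls of each list, the 3 nearest genes in pattern where group means spanned at least 1 log2 unit, and Dnmt1 and Dicer1. Alternatives covered the replicate unit, left-out libraries, scaling, filter and variance model.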

Additional observations from a re-analysis of the deposited data

Results flagged for a closer look

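Each of the 10 genes was checked for a library far from the rest in each of the 3 groups, 30 checks in all. Ccne1 in WT 2B, at 6.22 log2 RPM, lay below the other 7 WT libraries by 0.54 of the group's range, past the 95% limit of Dixon's test for 8 samples. Chance alone flags about 1 in 20 such groups.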

How the results depend on the processing

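The number of the 10 genes called was 9, 9 and 7 for Dicer/Dnmt1 KO against Dnmt1 KO, Dicer/Dnmt1 KO against WT and Dnmt1 KO against WT. Of the 12892 tested genes 4682, 7985 and 5289 were called. The number in the set moved by over 1.5 times between the knockouts with A and B averaged (4, beside 1225 of all tested genes). It also did so with letter A libraries only (4, beside 951) or letter B libraries only (3, beside 667). In all 3 comparisons it moved when a change of at least 2-fold was asked for (2, 4 and 1, beside 589, 1650 and 901). These fits hold fewer values or ask for more, and the log2 fold changes of the averaged fit equal those reported. Leaving out each library in turn gave 8 to 9, 8 to 10 and 6 to 8 genes.

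Values near 0 changed sign under some settings, none of which passed the threshold. For Dnmt1 KO against WT, Rbl2 and Wee1 had -0.13 and -0.13 with WT numbers 1 and 2 only, -0.039 and -0.063 with letter A only, -0.052 and -0.093 without WT number 4, and -0.011 and -0.0025 with quantile normalization, and Wee1 had -0.0052 with median centring. Leaving out single libraries gave -0.0009 to 0.15 for Rbl2 and -0.034 to 0.11 for Wee1. Ccnd2 between the knockouts was -0.034 with the length trend removed.

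Numbers did not pair the libraries: the correlation of same-labelled libraries' deviations ran from -0.42 to 0.37. With the replicate number as a block, alone or with the letter, 9, 8 and 6 genes were called, the Rbl1 rise against WT and the Lats2 rise in Dnmt1 KO were lost, and Rbl2 and Wee1 in Dnmt1 KO against WT were at -0.13 and -0.13. Number means of the 2 knockouts deviated in opposite directions (correlation of -0.22), and a block with crossed numbers, added after seeing the data, called 9. All 10 genes had at least 125 reads in each library, so depth limits their values little, whereas 2 numbers in each knockout limit the tests.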
